A study of Rattus norvegicus with 6 samples.

Results

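The 8 genes Slc22a2, Slc22a4, Slc22a5, Slc22a6, Slc22a7, Slc22a8, Slc22a12 and Slc22a13 encode transporters of the SLC22 family that move drugs, metabolites, urate and carnitine across the proximal tubule of the kidney. They were chosen by gene symbol: every probe set that the array annotation assigns to exactly 1 of these symbols was taken, which gave 9 probe sets for 8 genes, out of 31042 probe sets and 14217 named genes tested. Slc22a8 has 2 probe sets and each other gene has 1. Kidney RNA came from 3 congenic S.LEW(10)x12x2x3x5 rats and 3 Dahl salt-sensitive (S) control rats, with 1 Affymetrix rat expression array per rat. The congenic rat has the S background with a segment of chromosome 10 of Lewis (LEW) origin, and S is an inbred line that becomes hypertensive on salt and develops proteinuria. All 6 rats were males born on one day, weaned at 30 days, fed a diet with 0.3% salt and killed at 53 days of age, and 1 congenic and 1 S rat shared each cage. The ends of the congenic segment were not used here, and the study asked how endosomal recycling in the proximal tubule relates to proteinuria.

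SLC22 proteins sit in the plasma membrane of epithelial cells and carry small charged molecules. In the proximal tubule, the basolateral members OAT1 (Slc22a6) and OAT3 (Slc22a8) take organic anions such as drugs and uremic solutes up from blood in exchange for dicarboxylates, OCT2 (Slc22a2) takes up organic cations such as metformin, and apical members such as URAT1 (Slc22a12) and OCTN2 (Slc22a5) recover urate and carnitine from the filtrate. The tubule is divided into segments that carry different members, so a whole-kidney value mixes segments and cell types.

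In congenic kidneys Slc22a8 rose at both of its probe sets, by 1.66 ± 0.29 and by 1.46 ± 0.31 on the log2 scale (SE, 3 against 3 rats), which are 3.15-fold and 2.76-fold. Slc22a7, an organic anion transporter, fell by 0.50 ± 0.09 and Slc22a12, the urate exchanger, fell by 0.43 ± 0.08 (SE), to 1.41-fold and 1.35-fold lower levels. The other 5 genes did not pass the test, with Slc22a2 closest to it at -0.37 ± 0.09 (SE, adjusted p = 0.0511). In limma's test across all probe sets with Benjamini-Hochberg adjustment and a threshold of 0.05, 2 of 9 member probe sets were higher, against 3.47% of all probe sets, and 2 of 9 were lower, against 2.53% of all probe sets (6% in either direction). The median difference of the 9 was -0.10, against -0.02 over all probe sets. The calls rest on few rats: leaving out S rat 3, congenic rat 1, congenic rat 2 or congenic rat 3 left none of the 9 probe sets past the threshold, although each difference kept its sign. A measure of RNA quality, the gap between 3′ and 5′ control probe sets, differed between the groups without overlap. With it in the fit Slc22a8 stood at 0.59 and 0.91, Slc22a7 at -0.20 and Slc22a12 at -0.27 on the log2 scale, and none of the 9 probe sets passed (limma, adjusted p from 0.79 to 0.99).

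The promoters of the 3 genes that changed are shown because these genes moved in opposite directions between the same kidneys. Each window runs from 250 bases before to 50 bases after the gene's start in RefSeq's rat assembly GRCr8, on the strand of the gene, and capitals mark matches on either strand to 3 short motifs: CAAAGTCCA (a site of HNF4, a transcription factor of the proximal tubule), GGGCGG (a GC box) and CCAAT.
Slc22a8, chr1:214927034-214927333, plus strand: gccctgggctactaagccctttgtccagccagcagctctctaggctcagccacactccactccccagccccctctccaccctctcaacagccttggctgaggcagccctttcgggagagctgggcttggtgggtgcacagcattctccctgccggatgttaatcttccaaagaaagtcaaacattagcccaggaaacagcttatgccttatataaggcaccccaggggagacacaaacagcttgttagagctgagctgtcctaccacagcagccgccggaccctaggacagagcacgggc
Slc22a7, chr9:22045248-22045547, plus strand: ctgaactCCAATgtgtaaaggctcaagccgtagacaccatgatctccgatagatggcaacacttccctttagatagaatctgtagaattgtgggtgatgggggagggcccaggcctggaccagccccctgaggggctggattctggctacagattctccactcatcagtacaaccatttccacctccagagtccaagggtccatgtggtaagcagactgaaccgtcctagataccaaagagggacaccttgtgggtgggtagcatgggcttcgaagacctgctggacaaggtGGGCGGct
Slc22a12, chr1:213281331-213281630, minus strand: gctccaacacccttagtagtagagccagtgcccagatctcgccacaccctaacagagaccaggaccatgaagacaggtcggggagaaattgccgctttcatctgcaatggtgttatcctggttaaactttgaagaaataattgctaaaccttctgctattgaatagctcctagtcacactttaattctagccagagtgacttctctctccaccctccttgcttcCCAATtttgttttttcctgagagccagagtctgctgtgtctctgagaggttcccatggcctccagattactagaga
The Slc22a8 window held none of the 3 motifs. Slc22a6 had no promoter entry. None of the 7 other member promoters held CAAAGTCCA, which 0.375% of 27457 promoters hold. At so low a share, its absence from 7 windows says nothing about HNF4 sites in these genes. The CCAAT motif was in the windows of Slc22a7, Slc22a12, Slc22a2 and Slc22a13 (37.7% of all promoters), and GGGCGG in those of Slc22a7, Slc22a4 and Slc22a5 (34.9% of all promoters). The windows of Slc22a4 and Slc22a5 were rich in G and C, at 67.7% and 73.7%, while those of Slc22a8, Slc22a7 and Slc22a12 had 58%, 54% and 47%, against a median of 52.3% over all promoters. A match is a description of the letters, and binding of a factor was not measured.

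The values are log2 probe set intensities. Arrays have no read depth, so the number of rats limits the precision, and levels of different probe sets cannot be set against each other. Array medians ran from 7.47 to 7.50 and correlations between arrays from 0.985 to 0.998. The RNA quality measure, averaged over beta-actin and Gapdh, widens when RNA is broken. It was 1.26, 1.01 and 1.08 in congenic rats 1, 2 and 3, against 1.56, 2.10 and 1.70 in S rats 1, 2 and 3. The groups did not overlap in it (1.12 ± 0.13 in congenic and 1.79 ± 0.28 in S rats, SD, n = 3; two-sided exact permutation p = 0.1, which no comparison of 3 against 3 can go below). Its values are therefore given beside the results, and its part in them was not tested except by a fit that holds it as a covariate. Of the kidney markers, Kap and Umod lay at percentiles 99.98 and 99.97 of mean intensity over all probe sets.

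Among the basolateral organic anion transporters, Slc22a8 at its brighter probe set stood at 12.06, 11.59 and 11.93 in congenic rats 1, 2 and 3, against 10.92, 9.55 and 10.14 in S rats 1, 2 and 3. Every congenic rat was higher than every S rat, and S rat 2 was lowest. The difference of 1.66 had a 95% interval of 0.98 to 2.33, or 1.98-fold to 5.01-fold (limma, adjusted p = 0.0265), and it ranked 19 from the top of the 31042 differences.

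The dimmer Slc22a8 probe set gave 7.89, 6.99 and 7.38 in congenic rats, against 6.67, 5.52 and 5.67 in S rats. The groups again did not overlap, and the rats kept the order of the first probe set within each group. S rats 2 and 3 lay below the lower quartile of the S arrays, which ran from 5.88 to 5.95, so the fold of 2.76 (95% interval 1.68 to 4.52, limma, adjusted p = 0.0373) is uncertain where S is dim.

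Slc22a6, which encodes OAT1 and is the neighbour of Slc22a8 on chromosome 1 with 0 protein-coding genes between them, stood at 12.11, 11.86 and 11.999 in congenic rats, against 11.94, 11.62 and 11.70 in S rats. The groups overlapped: S rat 1 lay above congenic rat 2. The difference of 0.24 (95% interval 0.0072 to 0.47) did not pass (limma, adjusted p = 0.18). Within each array the log2 ratio of Slc22a8 to Slc22a6 was -0.05, -0.27 and -0.06 in congenic rats. In S rats the ratio was -1.02, -2.06 and -1.55. Levels of 2 probe sets cannot be set against each other, so only the difference of this ratio between groups is read. This ratio did not overlap between groups, with a difference of 1.42 (two-sided exact permutation p = 0.1, adjusted p = 0.1 over 2 pairs, the smallest possible, so the test could not pass 0.05).

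**Figure D1:**
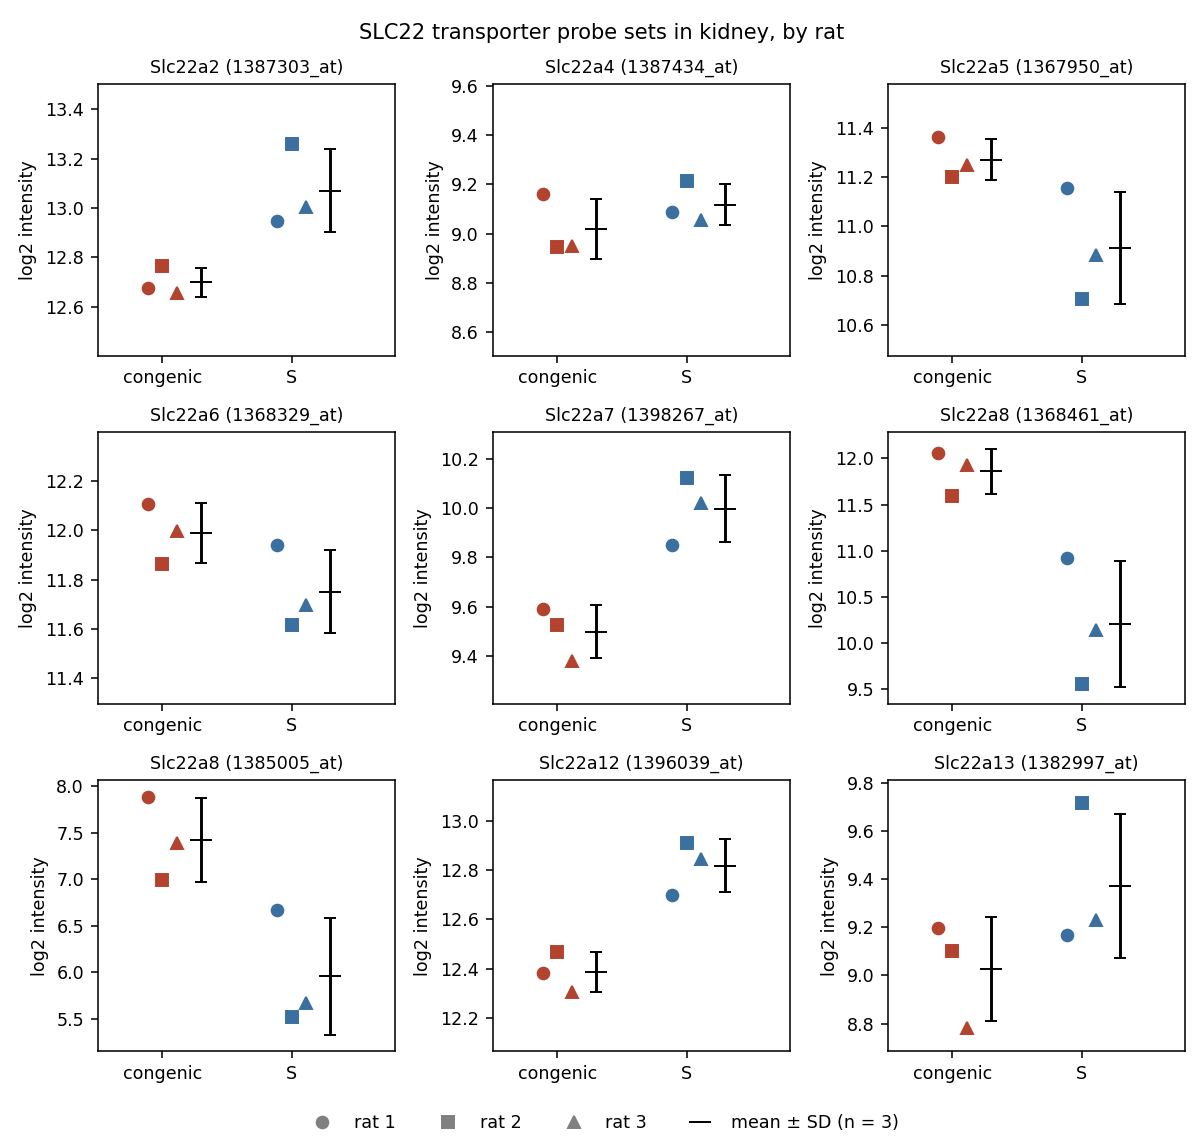
Log2 intensity of each SLC22 probe set (y axis) in congenic and S kidneys (x axis), 1 point per rat with the mean ± SD (n = 3) beside it. The congenic rats lie above the S rats at both Slc22a8 probe sets and at Slc22a5, and below them at Slc22a2, Slc22a7 and Slc22a12.

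The third organic anion transporter, Slc22a7 (OAT2), stood at 9.59, 9.53 and 9.38 in congenic rats, against 9.85, 10.12 and 10.02 in S rats. All congenic rats were lower, with means of 9.50 ± 0.11 in congenic and 10.00 ± 0.14 in S rats (SD, n = 3). The fall of 1.41-fold had a 95% interval of 1.22-fold to 1.63-fold (limma, adjusted p = 0.0276), and fewer than 1% of all probe sets had a more negative difference (percentile 0.97). Slc22a7 lies on chromosome 9.

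Among the urate transporters, Slc22a12 (URAT1), which takes urate back from the filtrate in exchange for anions, stood at 12.38, 12.47 and 12.31 in congenic rats, against 12.70, 12.91 and 12.84 in S rats. The groups did not overlap, and the spread was small in both (12.39 ± 0.08 in congenic and 12.82 ± 0.11 in S rats, SD, n = 3). The fall of 1.35-fold had a 95% interval of 1.19-fold to 1.53-fold (limma, adjusted p = 0.0282). Slc22a13 (OAT10), known in humans as an exchanger of nicotinate and urate, stood at 9.20, 9.10 and 8.78 in congenic rats, against 9.17, 9.71 and 9.23 in S rats. S rat 1 lay below congenic rat 1, so the groups overlapped, and the difference of -0.34 (95% interval -0.70 to 0.02) did not pass (limma, adjusted p = 0.22). It was -0.17 without S rat 2 and -0.22 without congenic rat 3.

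Among the organic cation and carnitine transporters, Slc22a2 (OCT2) stood at 12.68, 12.77 and 12.66 in congenic rats, against 12.95, 13.26 and 13.00 in S rats. All congenic rats were lower, and the difference of -0.37 (95% interval -0.58 to -0.16) missed the threshold narrowly (limma, adjusted p = 0.0511). It passed as lower in 6 of 16 alternative fits, with adjusted p from 0.0089 to 0.97 over the 16.

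Slc22a5 (OCTN2), the sodium-dependent carnitine transporter, stood at 11.36, 11.20 and 11.25 in congenic rats, against 11.15, 10.70 and 10.88 in S rats. The groups did not overlap, and the difference of 0.36 (95% interval 0.10 to 0.61) did not pass (limma, adjusted p = 0.0920). It passed as higher in 2 of 16 alternatives, with array weights and without S rat 1. Slc22a4 (OCTN1), a transporter of ergothioneine, stood at 9.16, 8.95 and 8.95 in congenic rats, against 9.09, 9.21 and 9.06 in S rats. These values overlapped, and the interval of the difference (-0.29 to 0.09, adjusted p = 0.51) holds both a fall and a small rise. The difference of -0.10 ran from -0.17 without congenic rat 1 to -0.05 without S rat 2.

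Slc22a5 and Slc22a4 lie on chromosome 10, the chromosome of the congenic segment, with 1 protein-coding gene (Slc22a21) between them and 576 between Slc22a4 and Rffl, a gene known from work on this segment. Whether they fall inside the LEW segment and whether LEW sequence alters their probes were not analysed here. The within-array log2 ratio of Slc22a5 to Slc22a4 was 2.20, 2.25 and 2.30 in congenic rats. In S rats the ratio was 2.07, 1.49 and 1.83. The groups did not overlap in it, with a difference of 0.46 (two-sided exact permutation p = 0.1, adjusted p = 0.1 over 2 pairs). Only the difference between groups is read here, not the level of the ratio. The 3 genes with a call lie outside chromosome 10: Slc22a8 and Slc22a12 are on chromosome 1 and Slc22a7 is on chromosome 9.

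**Figure D2:**
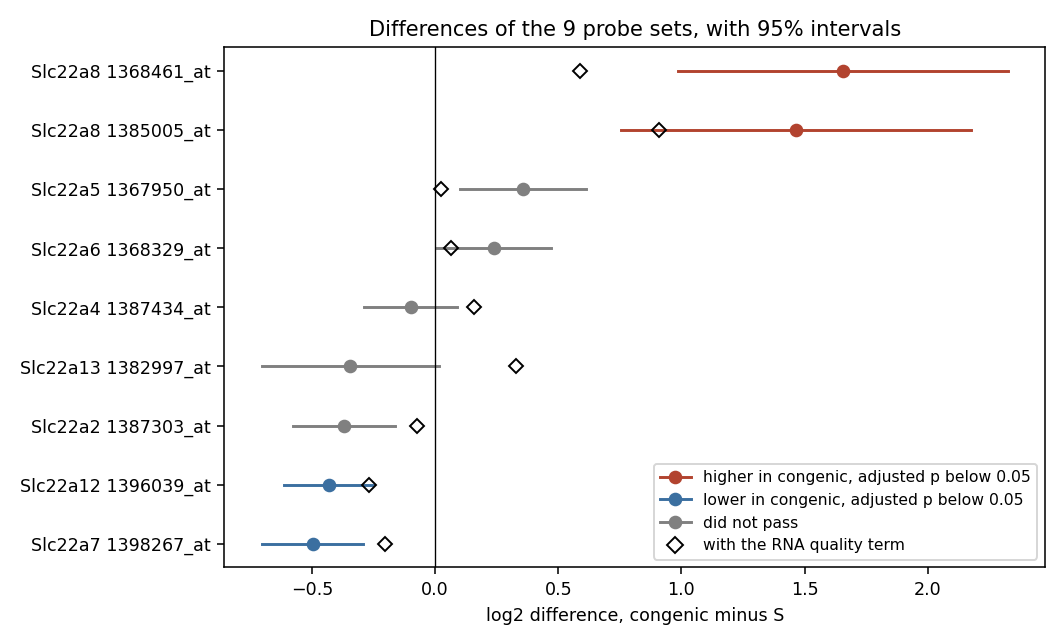
Log2 difference, congenic minus S (x axis), of each probe set with its 95% interval from limma, sorted by size (y axis). Open diamonds show the difference with the RNA quality measure in the fit. They lie nearer to 0 at 8 of the 9 probe sets, and the share over all probe sets was not computed. They lie on the other side of 0 at Slc22a4 and Slc22a13. Slc22a13 counts as nearer although it went from -0.34 to 0.33, almost the same size.

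The groups did not overlap at 6 of 9 member probe sets (31.2% of all probe sets), 3 higher (12.7% of all) and 3 lower (18.4% of all) in congenic rats. The S rats varied more than the congenic rats at 8 of the 9, and the share over all probe sets was not computed. S rat 2 was the S rat farthest from the congenic mean at all 9 member probe sets, as in 53.7% of all probe sets, and S rat 1 was the nearest at 8 of 9, as in 45.1% of all. The S rats thus stood in one order at most transporters, with S rat 1 nearest to the congenic level whether the gene was higher or lower.

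That order is also the order of the RNA quality measure in S rats, which was lowest in S rat 1 and highest in S rat 2. Slc22a8, Slc22a5 and Slc22a6 decreased and Slc22a2, Slc22a7 and Slc22a12 increased along it among S rats. Among congenic rats the order differed: congenic rat 1, with the largest 3′ minus 5′ difference of the 3, had the highest Slc22a8, Slc22a5 and Slc22a6 values. With the measure as a covariate the log2 differences were 0.59 ± 0.49 and 0.91 ± 0.65 for Slc22a8, -0.20 ± 0.15 for Slc22a7 and -0.27 ± 0.15 for Slc22a12 (SE), and none passed (limma, adjusted p from 0.79 to 0.88). The difference of Slc22a5 was 0.02, that of Slc22a6 0.06 and that of Slc22a2 -0.07 in that fit, while Slc22a13 turned to 0.33 and Slc22a4 to 0.16. The covariate itself separates the groups, so strain and RNA quality cannot be told apart in these 6 kidneys.

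**Figure D3:**
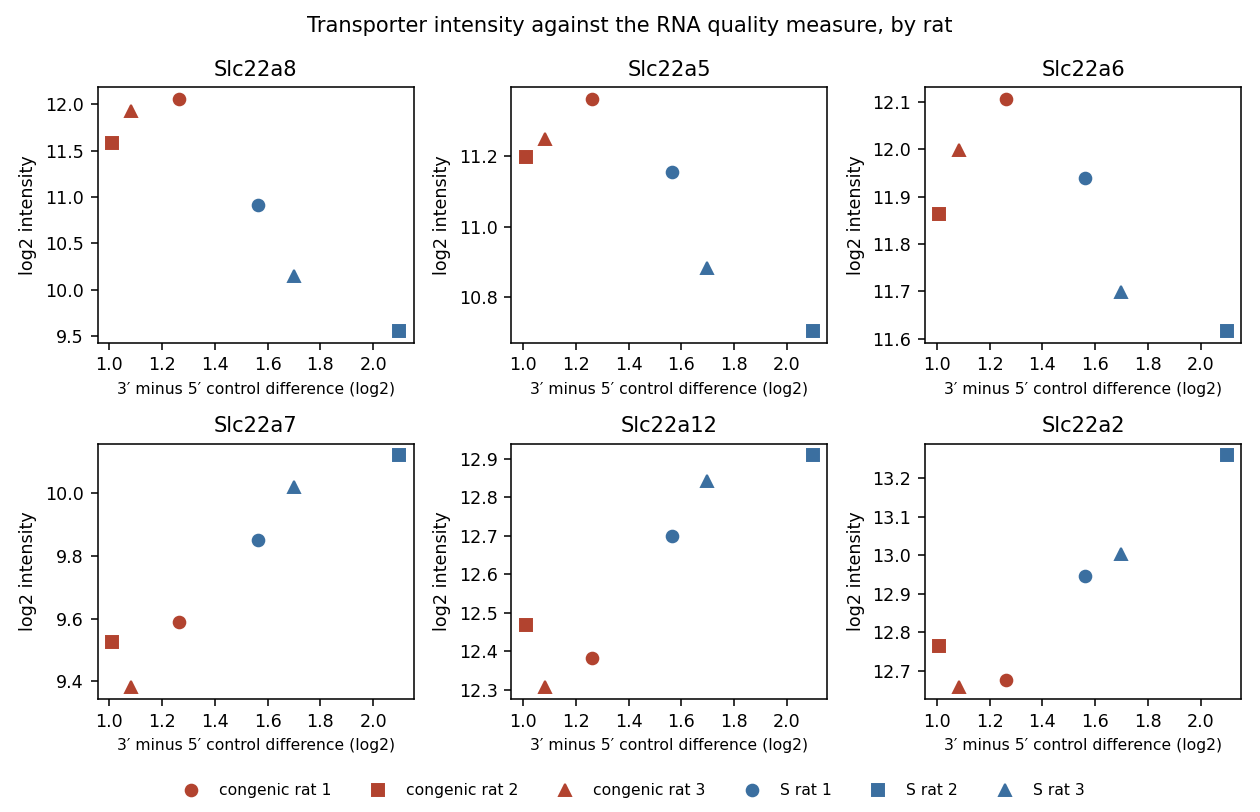
Log2 intensity of 6 transporters (y axes) against the mean 3′ minus 5′ difference of the beta-actin and Gapdh control probe sets (x axes), 1 point per rat. Congenic rats lie between 1.01 and 1.26 and S rats between 1.56 and 2.10, so the groups do not share a range of the RNA quality measure.

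Markers of cell types also moved. Of 15 early proximal tubule markers 4 rose (Slc5a12, Slc4a4, Slc5a2 and Slc7a7) and 11 did not pass. With the RNA quality term Slc5a12 stood at 1.33, Slc4a4 at 0.18, Slc5a2 at 0.60 and Slc7a7 at 0.66, and none passed. With robust eBayes Slc4a4 and Slc5a2 did not pass (limma, adjusted p = 0.0796 and 0.0553). No probe set of any gene passed without S rat 3 or without congenic rat 2. The mean level of the early list ran from 12.66 to 12.87 in congenic and from 11.95 to 12.49 in S rats. The median difference of the early list was 0.28, and 0.02 with the RNA quality term, against -0.03 over all genes at their brightest probe set (0.01 with the term). Of 11 late proximal tubule markers 1 fell, Agt, and the mean level of the list was 12.29 to 12.30 in congenic and 12.27 to 12.36 in S rats. None of 5 podocyte and 5 distal tubule markers passed. Adding the RNA quality term took the podocyte list to a median difference of -0.49, against 0.94 without it, and the distal list to -0.37, against 0.01. The mean podocyte level ran from 9.20 to 9.39 in congenic and from 7.68 to 9.53 in S rats, and the distal level from 9.08 to 9.17 in congenic and from 7.77 to 9.30 in S rats. Synpo, a podocyte gene, stood at 10.98 ± 0.05 in congenic and 10.63 ± 0.56 in S rats, and Calb1, of the distal tubule, at 13.49 ± 0.03 in congenic and 11.87 ± 2.19 in S rats (SD, n = 3). S rat 2 held the lowest mean level of both lists, at 7.68 for podocytes (9.53 and 8.33 in S rats 1 and 3) and 7.77 for the distal tubule (9.30 and 8.94 in S rats 1 and 3). The log2 difference of Calb1 was 1.62 with all rats and 0.37 without S rat 2. That of Synpo was 0.35 with all rats, 0.15 without S rat 2 and 0.67 without S rat 1, where it passed (limma, adjusted p = 0.0017).

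Of 8 fibroblast markers 4 rose (Lum, Fbln5, Dcn and Col1a1) and of 10 macrophage markers 6 rose (Fcgr2b, C1qb, C1qa, Cd14, Lyz2 and Cd74). Of 9 thick ascending limb markers Cldn16 fell, of 10 collecting duct markers Aqp4 and Slc4a1 fell, of 7 adipocyte markers Cidec fell, and of 6 hepatocyte markers Cyp2e1 rose. The counts of all marker lists stand against 4.79% of all genes at their brightest probe set, 2.12% higher and 2.67% lower. The mean fibroblast level was 11.35 to 11.46 in congenic and 10.81 to 10.97 in S rats, and the mean macrophage level 10.14 to 10.32 in congenic and 9.80 to 10.06 in S rats. The median difference was larger in the fit that holds RNA quality, at 0.60 against 0.40 for fibroblast and 0.51 against 0.34 for macrophage markers. No marker of any list passed in that fit (limma, adjusted p from 0.45 to 0.76 for the named fibroblast and macrophage markers). In it Cldn16 stood at -0.20, Aqp4 at -0.06, Slc4a1 at -0.32, Agt at -0.26, Cidec at -0.28 and Cyp2e1 at 0.54. With the rat number as a block Col1a1, Cd14, Cd74, C1qa, C1qb and Lyz2 did not pass (limma, adjusted p from 0.0508 to 0.12). Nor did Cldn16, Aqp4, Slc4a1 and the late proximal tubule marker Agt (limma, adjusted p = 0.0699, 0.0603, 0.10 and 0.0648). Lum, Dcn, Fbln5 and Fcgr2b passed with the block. Leaving out congenic rat 3, congenic rat 2 or S rat 3 took the call from every marker that had one. The unmoderated test called no marker either. Of the named fibroblast and macrophage markers, Lum and Fbln5 alone passed when congenic rat 1 was dropped (limma, adjusted p = 0.0316 and 0.0413). Cd74 also missed under the 2 other scalings and when S rat 1 or S rat 2 was absent. The part of these markers in the transporter differences was not tested. In whole kidney, fewer cells of a type and less RNA per cell cannot be told apart.

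The array holds 9 probe sets of 8 further SLC22 genes. Slc22a15 fell, at 8.97, 8.92 and 9.03 in congenic rats, against 9.36, 9.68 and 9.40 in S rats, a log2 difference of -0.50 ± 0.09 (SE, limma, adjusted p = 0.0292). No congenic rat reached the S range. With the RNA quality term the difference was -0.15 (adjusted p = 0.90), and Slc22a15 passed neither with the rat number as a block (adjusted p = 0.0568) nor without S rat 3 or any 1 congenic rat (adjusted p from 0.0718 to 0.12). The other 7 genes did not pass, so 1 of 8 was called, against 4.79% of all genes at their brightest probe set. Slc22a23, higher in every congenic rat at its brighter probe set, stood at 0.77 (adjusted p = 0.0615), while its dimmer one stood at 0.23 (adjusted p = 0.18).

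Slc22a24 (OAT5), a rat organic anion transporter, stood at -0.27 (adjusted p = 0.0621), and Slc22a21, the gene between Slc22a5 and Slc22a4, at -0.42 (adjusted p = 0.0786). Neither overlapped between groups. Slc22a3, Slc22a17, Slc22a18 and Slc22a25 lay between -0.19 and 0.04 with overlapping groups. Slc22a21 is closely related to Slc22a5 and Slc22a4, and probe sequences were not used here, so how far the probes separate the 3 was not tested.

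Of 13 measured genes of urate handling, Xdh, which makes urate, rose by 0.68 ± 0.13, Slc16a9, a monocarboxylate transporter family member, rose by 0.72 ± 0.17, the lactate cotransporter Slc5a12 rose by 2.28 ± 0.37, and Slc17a3, an apical organic anion transporter linked to urate, fell by 0.55 ± 0.07 (SE), while 9 did not pass. Over all genes at their brightest probe set 4.79% were called, 2.12% higher and 2.67% lower. Xdh stood at 11.50 ± 0.12 in congenic and 10.82 ± 0.25 in S rats, and Slc17a3 at 11.42 ± 0.0037 in congenic and 11.97 ± 0.09 in S rats (SD, n = 3). Slc5a12 stood at 8.38 ± 0.46 in congenic and was dim in S rats, at 6.10 ± 0.80 (SD, n = 3), so its difference is less certain. With the RNA quality term Xdh stood at 0.33, Slc16a9 at -0.041, Slc5a12 at 1.33 and Slc17a3 at -0.39, and none of the 4 passed (limma, adjusted p from 0.55 to 0.99). None passed without S rat 3, congenic rat 2 or congenic rat 3 either, and Slc16a9 did not pass with the rat number as a block (adjusted p = 0.0557). The urate transporter gene Slc2a9 (0.03) and the efflux pump gene Abcg2 (-0.17) did not pass. The list's median difference was 0.03, against -0.03 over 14217 genes at their brightest probe set.

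Of 18 measured partners in drug and metabolite transport 2 rose and 3 fell, against 2.12% higher and 2.67% lower over all genes (4.79% called). The monocarboxylate transporter Slc16a1 rose by 1.27 ± 0.15 and the peptide transporter Slc15a1 by 0.77 ± 0.13 (SE). Slc15a1 was dim, at 6.11 ± 0.22 in congenic and 5.34 ± 0.20 in S rats (SD, n = 3). The peptide transporter Slc15a2 fell by 0.51 ± 0.08, the organic anion transporting polypeptide gene Slco1a6 by 0.42 ± 0.09 and the efflux pump gene Abcb1a by 0.34 ± 0.07 (SE). With the RNA quality term Slc16a1 stood at 0.84, Slc15a1 at 0.66, Slc15a2 at -0.21, Slco1a6 at -0.13 and Abcb1a at -0.36, and none of the 5 passed (limma, adjusted p from 0.56 to 0.93). None passed without S rat 3, congenic rat 2 or congenic rat 3 either, and Slco1a6 and Abcb1a did not pass with the rat number as a block (adjusted p = 0.0624 and 0.0816). Slc13a3, the dicarboxylate transporter that supplies the exchange of OAT1 and OAT3, stood at 0.38 (adjusted p = 0.0704) and Slc47a1, the apical exit route of cations taken up by OCT2, at 0.17 (adjusted p = 0.21). The list's median was 0.06.

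Of 13 genes of carnitine synthesis and use, Slc16a9 rose and 12 did not pass, among them Bbox1, which makes carnitine, at 0.04 (adjusted p = 0.88), and Cpt1a, which loads fatty acids onto carnitine, at 0.15 (adjusted p = 0.27). The median of this list was 0.0035, and its only call, Slc16a9, turned to -0.041 with the RNA quality term and missed the threshold with the rat number as a block. None of 16 measured regulators and scaffolds of SLC22 transporters passed, and their median was -0.05. Among them the PDZ scaffold genes Nherf1 and Pdzk1 stood at -0.02 and 0.09, and the transcription factor gene Hnf4a at -0.16 (adjusted p = 0.18). Over all genes at their brightest probe set 4.79% were called. The counts of the carnitine and regulator lists lie near that share and are not read as a result about either list.

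By Pearson correlation over the 6 arrays, with 1 probe set per gene, the genes most like the brighter Slc22a8 probe set were Spink1l, Plin2, Xdh, Manea and Fam151a, with r from 0.997 to 0.998. Their own differences ran from 0.16 for Manea to 1.46 for Spink1l, so a like pattern came with changes of unlike size. The genes most like the dimmer Slc22a8 probe set were Ube2e3, Rbpms, Dnah7, Lims2 and Llph (r from 0.996 to 0.999), none of them shared with the first. Slc22a7 was most like Slc23a3, Sorl1, Cchcr1, Smarcd3 and Lsm1 (r from 0.994 to 0.998) and Slc22a12 most like Ccni, Cmc2, Brcc3, Fjx1 and Med9 (r from 0.994 to 0.998). The 6 arrays fall into 2 strains, which also differ in the RNA quality measure, so these values describe the patterns only.

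**Figure D4:**
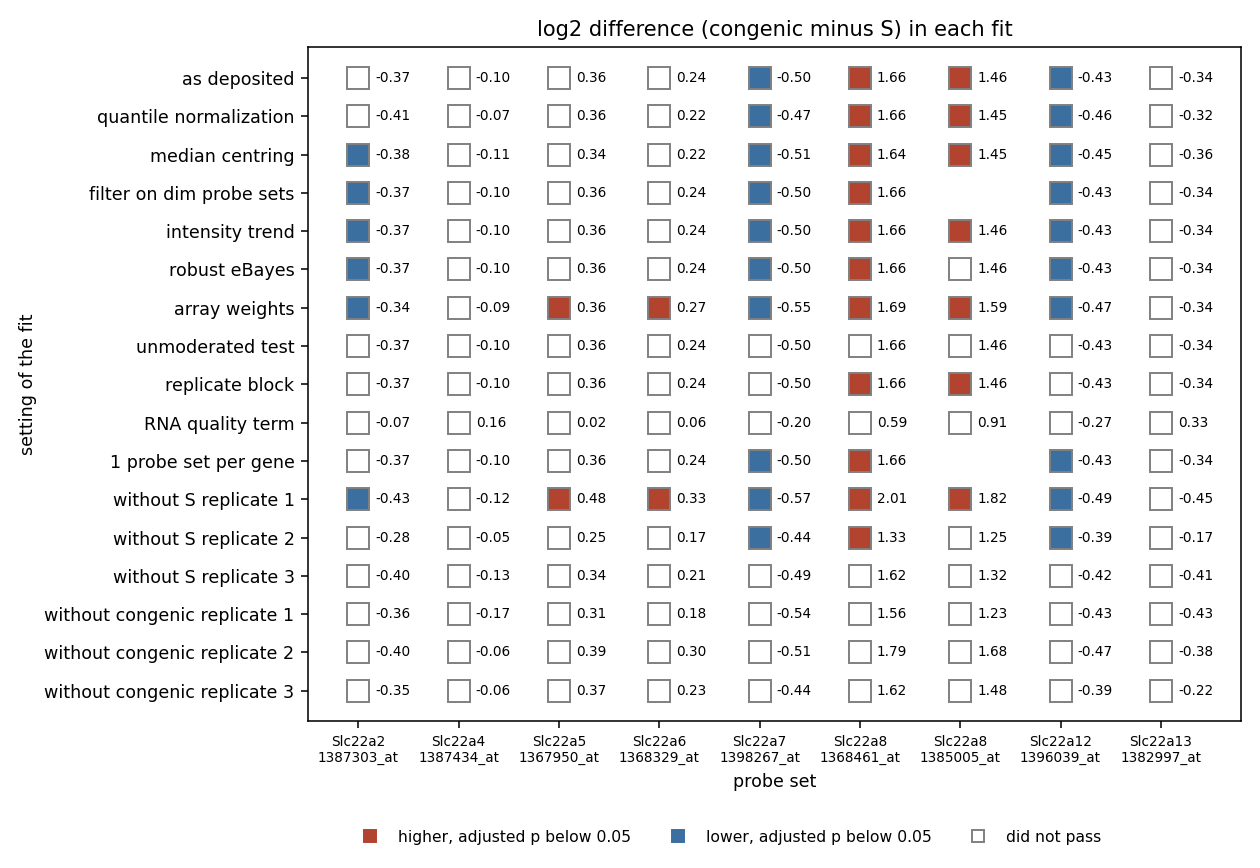
Log2 difference, congenic minus S, of the 9 probe sets (x axis) under each setting of the fit (y axis), with filled squares where adjusted p was below 0.05 and no square where the setting leaves out the probe set. The brighter Slc22a8 probe set passed in 10 of 16 alternatives, and Slc22a7 and Slc22a12 in 9 of 16 each.

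The brighter Slc22a8 probe set kept its direction in all 16 alternatives, between 0.59 with the RNA quality term and 2.01 without S rat 1, and was 1.33 without S rat 2. The dimmer one passed in 6 of the 14 alternatives that retain it and lay between 0.91 and 1.82. Slc22a7 stayed between -0.57 and -0.20 and Slc22a12 between -0.49 and -0.27. Slc22a13 and Slc22a4 passed in 0 of 16.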

How the data were processed

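Total RNA from kidneys was labelled and hybridized to 1 Affymetrix array per rat, per the labels' protocols. The authors deposited probe set intensities, taken as log2 from values between 3.76 and 15.1. The array medians lay close together, from 7.47 to 7.50. Their software and normalization are not given in the sources used.

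The table has 31099 probe sets, and 57 controls were not tested. Names came from the platform annotation, updated by Entrez identifier to RefSeq's GRCr8 gene table. Of 31042 tested, 20826 had 1 symbol (20758 matched), 436 had several and 9780 none. Groups came from the sample titles. The fit was limma 3.58.1 in R 4.3.3 (lmFit, eBayes, two-sided, Benjamini-Hochberg over all probe sets, adjusted p under 0.05, 8.49 degrees of freedom with the prior). Its code was run on simulated data with planted shifts and independent noise. Those data hold no variation shared between probe sets, so they say nothing about RNA quality. For the gene lists the probe set with the highest mean stood for its gene. Intervals are 95%. Every member probe set is named, the called genes of each list and the most abundant gene of lists without a call. Other list genes were chosen after their values were seen.

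The members, lists and alternatives were chosen with earlier results of these data known. Alternatives were 2 other scalings, a filter on mean intensity (percentile 40), array weights, robust eBayes, an intensity trend, an unmoderated test, the rat number as a block, each rat left out, an RNA quality covariate and 1 probe set per gene. Figures used matplotlib 3.10.9 in Python 3.11.15.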

Additional observations from a re-analysis of the deposited data

How the results depend on the processing

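The counts of SLC22 probe sets called, 2 higher and 2 lower, moved with the setting. The higher count was 1 with the filter on dim probe sets and with 1 probe set per gene (both leave out the dimmer Slc22a8 probe set), 1 with robust eBayes and 4 with array weights. With the RNA quality term and with the unmoderated test 0 members, 0 of all probe sets and 0 genes of the other SLC22, urate, partner, carnitine and regulator lists (marker lists not counted) passed. There 0 and 5 of the 9 members, and 2292 and 6166 of all probe sets, lay below an unadjusted p of 0.05, against 7 and 7895 in limma's fit of the values as deposited. With the rat number as a replicate block 2 members were higher, 0 lower (Slc22a7 at adjusted p = 0.0551, Slc22a12 at adjusted p = 0.0508) and 658 probe sets were called in all. Over all probe sets the same-numbered rats did not deviate together (correlations -0.01, -0.18 and -0.14), and the labels do not say that a number marks a cage. At both Slc22a8 probe sets, Slc22a5 and Slc22a6 the rats ran 1, 3, 2 from high to low in both groups, and the block's SE at the dimmer Slc22a8 probe set was 0.11, against 0.31 without it. All calls, 1862 of 31042 in limma's fit, were 6077 with array weights. With 1 probe set per gene 666 of 14217 were called, against 681 of the same probe sets in limma's fit of all probe sets. The genes called in the other SLC22, urate, partner, carnitine and regulator lists, 10, were 22 with array weights. Leaving out 1 rat gave 0 to 4 members higher, 0 to 3 lower, 0 to 4752 probe sets in all and 0 to 16 genes of those lists. The count of all probe sets was 0 without S rat 3 or congenic rat 2, where 6968 and 5575 lay below an unadjusted p of 0.05, and each of these counts was highest without S rat 1. The RNA quality difference of -0.67 ran from -0.78 to -0.51 in those fits.

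With the RNA quality term the sign turned for Slc22a13 (0.33), Slc22a4 (0.16), Slc22a17 (0.047), Slc22a23 at its dimmer probe set (-0.028), Slc16a9 (-0.041), Calb1 (-2.70) and Synpo (-0.49). It turned for Nherf1 with array weights (0.019) and when S rat 2 (0.017) or congenic rat 1 (0.031) was left out, and for Slc22a25 when S rat 3 (0.039) or congenic rat 2 (0.010) was left out. Over the fits that leave out 1 rat Nherf1 ran from -0.088 to 0.031 and Slc22a25 from -0.065 to 0.039. The cause was not tested. Of the other single-gene values 540 kept direction and side of the threshold, 221 lost a call and 21 gained one. Dim probe sets, such as the second of Slc22a8, have less certain folds.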
